A study of Mus with 10 samples.

Results

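The 33 genes described here encode proteins that act in the repair or bypass of psoralen crosslinks and other bulky lesions in DNA. They comprise 19 Fanconi anaemia and recombination genes, 5 genes of translesion synthesis and 9 genes of nucleotide excision repair. Members were taken from the deposited value table through the platform annotation, using only probe sets listed with 1 gene symbol and, for each gene, the probe set with the highest mean. By this rule 31 of the 33 genes were measured, among 22180 genes in all: 18 Fanconi and recombination genes, 5 translesion genes and 8 excision genes. Fanca and Ddb2 lie on probe sets listed with several symbols and were not analysed here. Each measured member had 1 probe set.

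The RNA came from whole skin of female BALBc mice aged 7 to 8 weeks and was hybridised to 10 Affymetrix arrays. There were 2 control arrays and 4 arrays each of skin labelled PUVA 3D and PUVA 7D. PUVA is topical psoralen followed by UVA light; the labels give 0.25 J/cm2 of UVA, 2 times a week for 2 weeks. They give a gap of 3 or 7 days between that course and imiquimod, an immune agonist that provokes psoriasis-like inflammation in mouse skin, and no gap for the controls. Whether imiquimod reached the skin that was arrayed, and what else the controls received, is not in the labels, so the gap is used here only as the name of a group. All groups share strain, sex, age range and tissue. Beyond the titles nothing says that the arrays came from separate animals, so the spread behind each p-value may be technical, and 2 controls limit the precision of every comparison with them.

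Psoralen intercalates in DNA and, under UVA, bonds to thymines on one or both strands; the bond to both strands is an interstrand crosslink that blocks replication. In S phase a stalled fork is recognised by the Fanconi core complex, which attaches ubiquitin to FANCD2 and FANCI; nucleases then unhook the crosslink, translesion polymerases copy past it, and recombination rebuilds the broken chromatid with BRCA1, PALB2 and BRCA2. Nucleotide excision repair works throughout the cell cycle and cuts out the damaged stretch of a single strand, and its nuclease ERCC1-ERCC4 also serves in unhooking. Many Fanconi and recombination genes are transcribed mainly in dividing cells, whereas excision genes are expressed in resting cells as well.

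The values are on a log2 scale, and each array's median over all probe sets lay between 5.83 and 5.86. The controls differed from each other in genes of dividing cells, of the hair follicle, of melanocytes and B cells, and in fibroblast collagens. Control replicate 2 was the highest of the 10 arrays for all 31 measured genes of a list of S phase and mitosis genes that holds no member, and for 17 of 18 hair matrix and shaft genes; the share over all genes was 11.5%. The mean of the S phase and mitosis list was 7.02 and 7.73 in the controls, 6.96 to 7.10 on the PUVA 3D arrays and 6.79 to 6.97 on the PUVA 7D arrays. The mean of the hair list was 6.34 and 8.19 in the controls and 5.45 to 5.75 on the PUVA 3D arrays, with 5.50 to 5.65 on the PUVA 7D arrays. The basal keratinocyte keratin gene Krt14 marked the tissue as skin on every array, at 12.18 and 12.01 in the controls and 11.76 to 12.12 after PUVA. The samples held muscle RNA as well. The skeletal muscle actin gene Acta1 read 13.06 and 12.96 in the controls and 12.81 to 12.99 after PUVA. Melanocyte markers were higher on control replicate 2 than on control replicate 1 for 9 of 9 genes, with a median gap of 1.17, and B cell markers for 3 of 3, with a median gap of 0.73. The B cell markers were low, with a mean of 4.44 on control replicate 1, where the lower quartile of all genes was 4.54. Fibroblast markers were higher on control replicate 2 for 6 of 8 genes, with a median gap of 0.38 and the largest, 1.25, for Col1a1. Other lists went the other way. Skeletal muscle markers were higher there for 0 of 5 genes (median gap -0.18) and adipocyte markers for 0 of 4 (-0.13). T cell markers were higher for 1 of 7 (-0.29), endothelial markers for 1 of 5 (-0.17) and neutrophil markers for 1 of 6 (-0.17). Values against the controls are therefore given with and without control replicate 2 for many genes named, and without control replicate 1 for fewer. With 2 controls, which of them is atypical cannot be told, so neither value is the truer one. Where only 1 value is given, the gene may still have moved without either control.

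Fanconi and recombination genes lay lower in PUVA skin than in the mean of the controls, translesion genes did so in part, and excision genes lay close to the controls. None of the 31 members passed an adjusted p of 0.05 in limma's test with Benjamini-Hochberg adjustment over all genes, and the background was as sparse: 0.00451% of genes passed in PUVA 3D against control, 0% in PUVA 7D against control and 0% for the mean of both PUVA groups against control. For that mean, 16 of 18 Fanconi and recombination genes were below 0, where 46.6% of all genes were, with a median log2 difference of -0.19. The same median was -0.14 for the 5 translesion genes and -0.045 for the 8 excision genes, beside 0.011 over all genes. At an unadjusted p under 0.05, 6 Fanconi and recombination genes (Fancd2, Brca1, Brca2, Brip1, Exo1 and Blm), the translesion gene Rad18 and no excision gene were lower, where 3.39% of all genes were; no member was higher, where 3.93% of genes were. In bulk skin, fewer cells of a type and less RNA per cell cannot be told apart.

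The size of the difference depended on which control was kept. Without control replicate 2 the median over the Fanconi and recombination genes was -0.033, with 10 of 18 below 0, and for the mean of both PUVA groups no member was lower at an unadjusted p under 0.05, where 1.64% of all genes were. Over all genes 49.0% were below 0 without that control. Without control replicate 1, with the spread around the remaining control taken from the PUVA groups, the median was -0.34. There 15 of 18 were below 0, where 44.9% of all genes were. The genes named above then differed by -0.71 (Fancd2), -1.18 (Brca1), -0.67 (Brca2), -0.49 (Brip1), -0.97 (Exo1), -0.69 (Blm) and -0.57 (Rad18). In that fit 9 of the 18 were lower at an unadjusted p under 0.05, where 4.74% of genes were, and 5 passed an adjusted p of 0.05 in limma, as did Rad18, where 1.02% of genes passed in either direction. In the same fit 4 of the 31 members passed for PUVA 3D alone, where 0.821% of genes did, and 6 for PUVA 7D alone, where 0.978% did. Control replicate 2 was the highest of the 10 arrays for 11 of the 18 Fanconi and recombination genes, for 3 of the 5 translesion genes and for 1 of the 8 excision genes, against 11.5% of all genes. Control replicate 1 lay inside the range of the 8 PUVA arrays for 15, 5 and 6 of them. The share of all genes with control replicate 1 in that range was not worked out, so these counts have no background. Leaving out control replicate 2, 7 members changed sign in the mean of both PUVA groups: Fancm, Fanci, Fan1, Brca1, Palb2, Polq and Ercc5. Of these, Fan1 went from -0.015 to 0.034 and Ercc5 from 0.018 to -0.0018, near 0 both ways. The share of all genes that changed sign was not worked out. The part played by dividing cells, hair follicle cells, melanocytes, B cells, fibroblasts or other cells in these values was not tested.

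**Figure D1:**
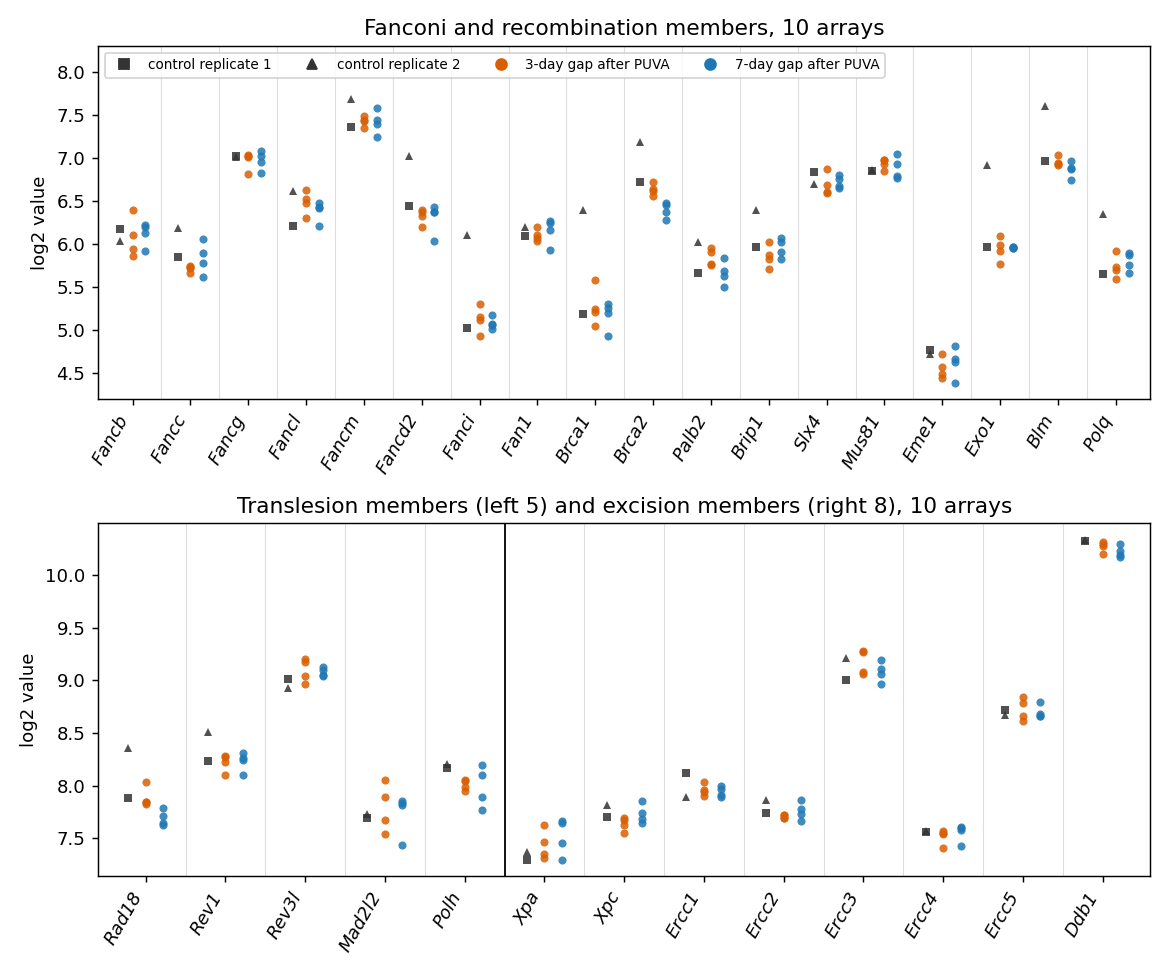
Deposited log2 value (y axis) of each measured repair gene (x axis, grouped by role) on each of the 10 arrays: squares, control replicate 1; triangles, control replicate 2; orange, PUVA 3D (3-day gap); blue, PUVA 7D (7-day gap). Control replicate 2 is the highest array for 11 of 18 Fanconi and recombination genes and for 1 of 8 excision genes; levels of different genes come from different probes and are not comparable.

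Among the core complex genes, whose products form the ubiquitin ligase of the pathway, no difference from control in the mean of both PUVA groups reached an unadjusted p of 0.05. Fancc, an adaptor subunit, read 5.85 and 6.19 in the controls and 5.66 to 5.74 on the PUVA 3D arrays, below both controls, but 5.61 to 6.05 on the PUVA 7D arrays. Its log2 difference from control was -0.31 ± 0.13 (SE) in PUVA 3D, with an adjusted p of 0.488 in limma, and -0.14 without control replicate 2, where its unadjusted p was 0.375. Fancl, which carries the ligase activity, spanned 6.21 to 6.62 over the PUVA arrays against 6.20 and 6.61 in the controls, and Fancg, Fancb and the fork translocase gene Fancm likewise overlapped the controls. Their differences over both PUVA groups were 0.02 ± 0.12 for Fancl, -0.05 ± 0.09 for Fancg, -0.01 ± 0.13 for Fancb and -0.10 ± 0.10 for Fancm. These were 0.23, -0.05, -0.08 and 0.06 without control replicate 2.

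Fancd2 and Fanci encode the clamp that the core complex ubiquitinates. Fancd2 read 6.44 and 7.02 in the controls, 6.19, 6.33, 6.39 and 6.37 on the PUVA 3D arrays, and 6.43, 6.04, 6.38 and 6.37 on the PUVA 7D arrays. All 8 PUVA arrays lay below both controls, by a small margin against control replicate 1. This held for 3 members in all, Fancd2, Brca2 and the excision gene Ddb1, and for 2.22% of all genes. The log2 difference of Fancd2 from control, over both PUVA groups, was -0.42 ± 0.14 (SE; adjusted p = 0.562 in limma), and -0.13 without control replicate 2. Fanci read 5.02 and 6.10 in the controls, 4.93, 5.15, 5.30 and 5.12 on the PUVA 3D arrays, and 5.18, 5.01, 5.07 and 5.06 on the PUVA 7D arrays. Control replicate 2 thus stood above every other array, and control replicate 1 lay among the PUVA arrays. The difference of -0.46 ± 0.21 (adjusted p = 0.684) became 0.08 without control replicate 2.

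Brca2, which acts in homologous recombination at resected DNA, showed the lowest unadjusted p of all members in PUVA 7D and in the mean of both PUVA groups against control; in PUVA 3D Fancd2 did. It read 6.72 and 7.18 in the controls, 6.61, 6.63, 6.56 and 6.71 on the PUVA 3D arrays, and 6.47, 6.45, 6.38 and 6.27 on the PUVA 7D arrays. The groups did not overlap, with PUVA 7D lowest, PUVA 3D next and the controls on top, although the highest PUVA 3D array all but met control replicate 1. The log2 difference from control was -0.32 ± 0.12 (SE; adjusted p = 0.457) in PUVA 3D and -0.55 ± 0.12 (adjusted p = 0.71) in PUVA 7D, both in limma. Without control replicate 2 these were -0.09 and -0.32, the latter with an unadjusted p of 0.018. The comparisons share their controls and are given side by side for that reason.

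Brca1, a ubiquitin ligase that promotes end resection and recruits PALB2 and BRCA2, read 5.19 and 6.40 in the controls, 5.04, 5.58, 5.21 and 5.24 on the PUVA 3D arrays, and 5.31, 5.25, 4.93 and 5.19 on the PUVA 7D arrays. The high control set the difference: control replicate 1 lay inside the PUVA range. Over both PUVA groups it was -0.57 ± 0.25 (SE; adjusted p = 0.664), and it turned to 0.030 without control replicate 2 and -1.18 without control replicate 1. Palb2, which bridges BRCA1 and BRCA2, read 5.66 and 6.02 in the controls, 5.76, 5.76, 5.91 and 5.96 on the PUVA 3D arrays, and 5.62, 5.49, 5.69 and 5.84 on the PUVA 7D arrays. Its PUVA arrays overlapped the controls, with a difference of -0.09 ± 0.11 that was 0.10 without control replicate 2. Brip1, a helicase partner of BRCA1, read 5.97 and 6.40 in the controls, 5.71, 6.02, 5.87 and 5.83 on the PUVA 3D arrays, and 6.07, 5.82, 6.03 and 5.90 on the PUVA 7D arrays. It, too, overlapped control replicate 1, with a difference of -0.28 ± 0.12 (adjusted p = 0.669) that became -0.06 without control replicate 2.

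Exo1 and Blm act on DNA ends and joint molecules during recombination, EXO1 as a resecting exonuclease and BLM as a helicase. Exo1 read 5.97 and 6.91 in the controls, 5.92, 6.09, 5.98 and 5.77 on the PUVA 3D arrays, and 5.96, 5.95, 5.95 and 5.97 on the PUVA 7D arrays. All but 1 array lay within a narrow range, and control replicate 2 stood far above it. The difference from control was -0.49 ± 0.18 (SE; adjusted p = 0.605 in limma) with both controls and -0.02 without control replicate 2. Blm read 6.96 and 7.60 in the controls, 6.92, 7.03, 6.94 and 6.93 on the PUVA 3D arrays, and 6.97, 6.88, 6.87 and 6.74 on the PUVA 7D arrays, so that control replicate 1 again lay among the PUVA arrays. Its difference was -0.37 ± 0.13 (adjusted p = 0.592), and -0.05 without control replicate 2. Polq, the polymerase of theta-mediated end joining, followed the same order, at 5.65 and 6.35 in the controls and 5.59 to 5.92 after PUVA. Its difference was -0.23 ± 0.15, and 0.12 without control replicate 2.

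The genes of the nucleases that unhook crosslinks showed no such high control. Slx4, the scaffold of the unhooking nucleases, read 6.83 and 6.70 in the controls and 6.60 to 6.87 after PUVA. Mus81 read 6.85 and 6.86 against 6.77 to 7.04, and its partner Eme1 4.76 and 4.72 against 4.39 to 4.82. Fan1, a nuclease recruited by ubiquitinated FANCD2, read 6.09 and 6.19 against 5.93 to 6.26. Their differences from control ran from -0.15 ± 0.11 for Eme1 to 0.05 ± 0.09 for Mus81. Eme1 was the 1 member that fell below the lower quartile of all genes on some arrays.

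**Figure D2:**
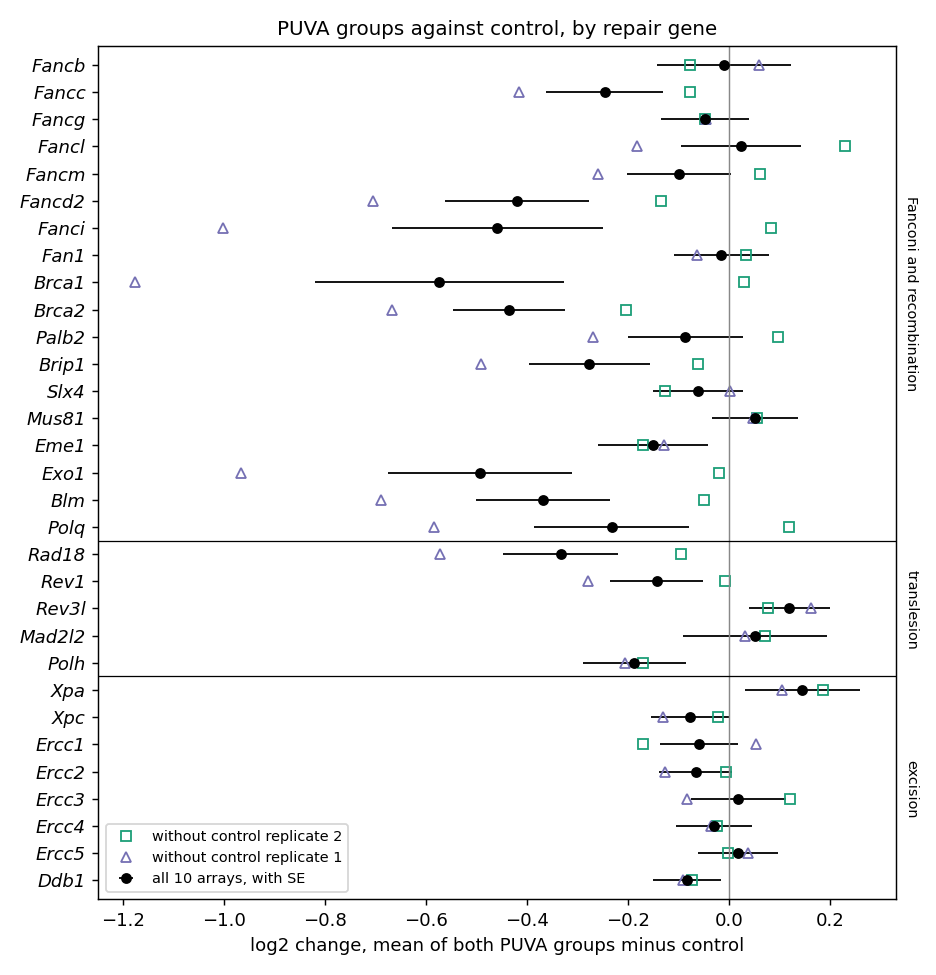
Log2 difference of the mean of both PUVA groups from control (x axis) for each measured repair gene (y axis): filled points with bars, all 10 arrays ± SE; open squares, without control replicate 2; open triangles, without control replicate 1. For Brca1 the value is -0.57 with both controls and 0.030 without control replicate 2, and the excision genes stay between -0.08 and 0.15 with both controls.

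Translesion synthesis begins when RAD18 attaches ubiquitin to PCNA at a stalled fork. Rad18 read 7.88 and 8.36 in the controls, 7.84, 8.03, 7.84 and 7.82 on the PUVA 3D arrays, and 7.71, 7.63, 7.78 and 7.64 on the PUVA 7D arrays. The PUVA 7D arrays were below both controls and below every PUVA 3D array, while the PUVA 3D arrays overlapped control replicate 1. The log2 difference from control was -0.24 ± 0.12 (SE) in PUVA 3D and -0.43 ± 0.12 in PUVA 7D, the latter with an adjusted p of 0.748 in limma, and without control replicate 2 these were 0.0018 and -0.19. Polh, the polymerase that copies past UV lesions, read 8.17 and 8.20 in the controls, 7.99, 8.05, 7.95 and 8.04 on the PUVA 3D arrays, and 8.19, 8.10, 7.77 and 7.89 on the PUVA 7D arrays. The controls were alike for this gene, and 7 of the 8 PUVA arrays lay below both. Its difference of -0.19 ± 0.10 (adjusted p = 0.744) was -0.17 without control replicate 2.

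REV1, REV3L and MAD2L2 form the machinery that inserts opposite an unhooked crosslink and extends from it. Rev3l, the catalytic subunit of polymerase zeta, read 9.01 and 8.93 in the controls, 9.21, 9.05, 8.96 and 9.18 on the PUVA 3D arrays, and 9.13, 9.04, 9.05 and 9.10 on the PUVA 7D arrays. Of the 8 PUVA arrays 7 lay above both controls, with a difference of 0.12 ± 0.08 (SE; adjusted p = 0.82). Mad2l2, its accessory subunit, read 7.69 and 7.73 in the controls, 8.05, 7.89, 7.54 and 7.68 on the PUVA 3D arrays, and 7.86, 7.84, 7.81 and 7.43 on the PUVA 7D arrays. Both PUVA groups spread to either side of the controls, and the difference was 0.05 ± 0.14. Rev1 read 8.23 and 8.50 in the controls and 8.10 to 8.31 after PUVA, a difference of -0.14 ± 0.09 that was -0.0079 without control replicate 2.

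The excision genes showed narrow differences. XPC and the DDB1 complex find the lesion. Xpc read 7.70 and 7.81 in the controls, 7.68, 7.55, 7.63 and 7.69 on the PUVA 3D arrays, and 7.65, 7.73, 7.85 and 7.68 on the PUVA 7D arrays. The PUVA 3D arrays were below both controls and the PUVA 7D arrays overlapped them. The log2 difference over both PUVA groups was -0.08, with a 95% interval from -0.25 to 0.10 (adjusted p = 0.892 in limma), and -0.02 without control replicate 2. Ddb1 read 10.32 and 10.34 in the controls, 10.20, 10.31, 10.30 and 10.28 on the PUVA 3D arrays, and 10.29, 10.23, 10.17 and 10.19 on the PUVA 7D arrays. All PUVA arrays were lower than both controls, the nearest by less than the distance between the controls. The difference was -0.08 with an interval from -0.23 to 0.07 (adjusted p = 0.865).

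Next in the pathway, the TFIIH helicases ERCC2 and ERCC3 open the DNA and XPA checks the damage. Ercc2 read 7.74 and 7.86 in the controls, 7.69, 7.72, 7.69 and 7.72 on the PUVA 3D arrays, and 7.67, 7.73, 7.86 and 7.77 on the PUVA 7D arrays. Ercc3 read 9.01 and 9.21 in the controls, 9.06, 9.08, 9.27 and 9.28 on the PUVA 3D arrays, and 9.19, 8.96, 9.11 and 9.06 on the PUVA 7D arrays. The PUVA 3D arrays were below both controls for Ercc2 but not for Ercc3. Their differences were -0.07 (95% interval -0.23 to 0.09) for Ercc2 and 0.02 (-0.19 to 0.23) for Ercc3, and without control replicate 2 they were -0.0062 and 0.12. Xpa read 7.29 and 7.37 in the controls, 7.63, 7.31, 7.46 and 7.35 on the PUVA 3D arrays, and 7.29, 7.46, 7.65 and 7.67 on the PUVA 7D arrays. Its arrays ran mostly above the controls, the highest difference among the excision genes at 0.15 (95% interval -0.11 to 0.40; adjusted p = 0.857).

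The incision nucleases had values near the controls. Ercc1, the partner that places ERCC4 on DNA, read 8.12 and 7.90 in the controls, 7.94, 7.90, 7.95 and 8.03 on the PUVA 3D arrays, and 7.91, 7.99, 7.89 and 7.96 on the PUVA 7D arrays. Here control replicate 1 was the high array. The difference was -0.06 (95% interval -0.23 to 0.11) with both controls, -0.17 without control replicate 2 and 0.05 without control replicate 1. Ercc4, the catalytic subunit shared with crosslink unhooking, read 7.56 and 7.57 in the controls, 7.54, 7.55, 7.41 and 7.56 on the PUVA 3D arrays, and 7.60, 7.43, 7.60 and 7.57 on the PUVA 7D arrays. Its arrays overlapped the controls, with a difference of -0.03 (95% interval -0.20 to 0.14). Ercc5, the nuclease on the other side of the lesion, read 8.72 and 8.68 in the controls and 8.61 to 8.84 after PUVA.

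For each PUVA group taken alone the picture was similar. In PUVA 3D against control, 15 of 18 Fanconi and recombination genes were below 0, where 49.4% of all genes were, with a median of -0.22. Those lower at an unadjusted p under 0.05 were 6, namely Fancc, Fancd2, Brca2, Brip1, Exo1 and Blm. Over all genes 4.07% were lower and 5.67% higher at that threshold. In PUVA 7D against control, 15 of 18 were below 0, where 45.0% of all genes were, with a median of -0.18. At that threshold 5 (Fancd2, Brca1, Brca2, Exo1 and Blm) were lower, where 2.68% of all genes were lower and 3.21% higher. Without control replicate 2 both medians were -0.016. Over the excision genes the medians were -0.05 in PUVA 3D and -0.03 in PUVA 7D, with no gene past the threshold. Rad18 was the 1 translesion gene past it, in PUVA 7D. The counts of Fanconi and recombination genes also moved with single PUVA arrays: in PUVA 3D the count was 1 without replicate 1 and 2 without replicate 4, and in PUVA 7D it was 3 without replicate 2, 3 or 4. Without PUVA 7D replicate 1 the translesion count in PUVA 7D was 2. The share of all genes lower in the fits without a PUVA array was not worked out, so their counts have no background.

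**Figure D3:**
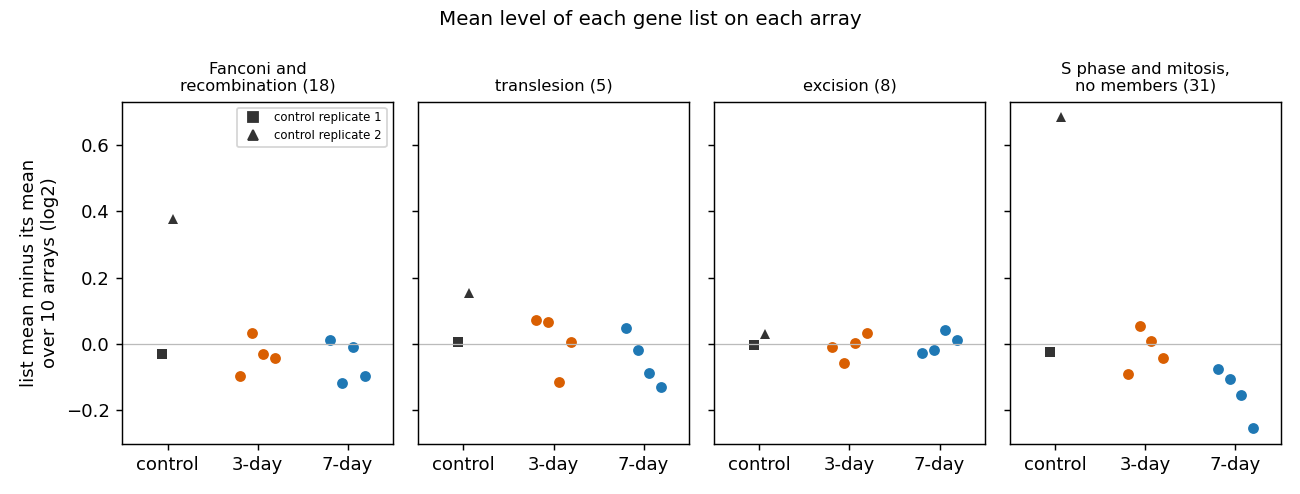
Mean log2 value of each gene list on each of the 10 arrays, minus the list's mean over all arrays (y axis), by group (x axis), for the Fanconi and recombination, translesion and excision genes and for the S phase and mitosis list; each point is 1 array. Control replicate 2 is the highest array for the Fanconi and recombination genes (mean 6.55, with 6.15 in control replicate 1 and 6.06 to 6.21 after PUVA) and for the S phase and mitosis list (7.73, with 7.02 in control replicate 1 and 6.79 to 7.10 after PUVA).

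The S phase and mitosis list, measured beside the members, was also highest on control replicate 2. Over both PUVA groups all 31 of its genes were below 0, where 46.6% of all genes were, with a median log2 difference from control of -0.41. None passed an adjusted p of 0.05 in limma. At an unadjusted p under 0.05, 24 were lower, where 3.39% of all genes were. Without control replicate 2 the median was -0.089, with 21 of 31 below 0, where 49.0% of all genes were. Mki67, a marker of cycling cells, read 9.74 and 10.24 in the controls and 9.50 to 9.69 after PUVA, Top2a, the topoisomerase of S and G2 phase, 8.32 and 8.82 against 7.97 to 8.19, and the replicative helicase gene Mcm5 7.26 and 8.44 against 6.87 to 7.69. The hair sheath keratin Krt71 read 8.04 and 11.47 in the controls and 3.85 to 5.60 after PUVA. The fibroblast collagen Col1a1 read 10.38 and 11.63 in the controls, 11.67 to 12.41 on the PUVA 3D arrays and 10.51 to 11.68 on the PUVA 7D arrays. The gap between the controls, replicate 2 minus replicate 1, had a median of 0.39 over the Fanconi and recombination genes, 0.04 over the translesion genes, 0.05 over the excision genes and 0.72 over the S phase and mitosis list, beside -0.01 over all genes.

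PUVA 7D against PUVA 3D compares 4 arrays with 4; its errors come from the fit of all 10 arrays, so that the gap between the controls enters them. No member passed an adjusted p of 0.05 in limma, where 0.00902% of all genes did. Brca2 and Rad18 were the only members whose PUVA 7D arrays all lay below their PUVA 3D arrays, a pattern of 2.28% of all genes; no member showed the opposite, which 2.95% did. Brca2 differed by -0.24 ± 0.10 (SE), with a 95% interval from -0.45 to -0.02 and an adjusted p of 0.485, and was the 1 member past an unadjusted p of 0.05, where 4.43% of all genes were lower and 5.33% higher. It was no longer past it without PUVA 3D replicate 1, 2 or 4 or without PUVA 7D replicate 3 or 4, where the unadjusted p for Brca2 ran from 0.0557 to 0.0984. With the gap between the controls out of the spread, the unadjusted p was 0.00843 for Brca2 and 0.0276 for Rad18, each still short of an adjusted p of 0.05 in limma (0.352 for Brca2, the lowest of any member), where 4.51% of all genes were lower at an unadjusted p under 0.05. Rad18 differed by -0.19 ± 0.10 (95% interval -0.42 to 0.03; adjusted p = 0.567), and Palb2 by -0.19 ± 0.10 (95% interval -0.41 to 0.04; adjusted p = 0.575). The median difference was -0.004 over the Fanconi and recombination genes, -0.019 over the translesion genes and 0.010 over the excision genes, beside 0.0095 over all genes. Of the S phase and mitosis list 28 of 31 genes were below 0 in this comparison, where 46.8% of all genes were, with a median of -0.13. None was past an unadjusted p of 0.05 in the fit of all arrays. With the gap between the controls out of the spread, 4 were. Markers of other cells differed between the same arrays: all 8 fibroblast markers were lower in PUVA 7D than in PUVA 3D, with a median of -0.69 and 5 of them past an unadjusted p of 0.05, and all 8 macrophage markers were lower, with a median of -0.38 and 3 past it. Mean levels of the fibroblast list were 10.73 to 11.32 in PUVA 3D and 10.28 to 10.68 in PUVA 7D, and of the macrophage list 9.60 to 10.47 and 9.44 to 9.91. Their part in the values of Brca2 and Rad18 was not tested.

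**Figure D4:**
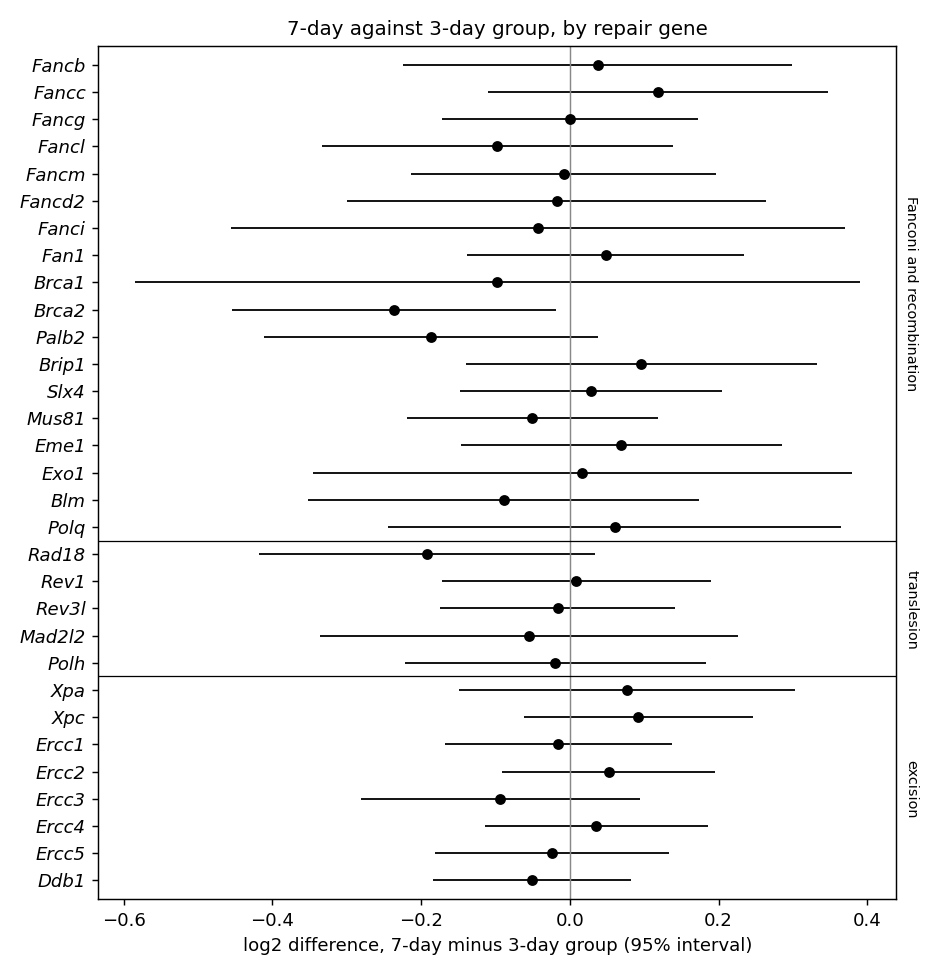
Log2 difference of PUVA 7D from PUVA 3D (x axis) with its 95% interval (bars) for each measured repair gene (y axis). Brca2, at -0.24 with an interval from -0.45 to -0.02, is the 1 gene whose interval leaves out 0.

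Other genes of the same pathways, from lists that hold no member, were set beside the members in the mean of both PUVA groups against control. The other Fanconi and recombination genes ran from -0.37 to 0.23, where the members ran from -0.57 to 0.05. Other translesion genes ran from -0.20 to 0.14 (members, -0.33 to 0.12). Other excision genes ran from -0.27 to 0.14 (members, -0.08 to 0.15), so that some lay lower than any excision member. Of 34 other Fanconi and recombination genes 33 were below 0 in the mean of both PUVA groups against control, with a median of -0.12, and 4 were lower at an unadjusted p under 0.05; over all genes 46.6% were below 0 and 3.39% were lower at that threshold. Without control replicate 2 the median was -0.03, with 19 of 34 below 0, where 49.0% of all genes were. The resolvase gene Gen1 differed by -0.34 ± 0.10 (SE; adjusted p = 0.524), the checkpoint kinase gene Chek1 by -0.37 ± 0.14 (adjusted p = 0.612) and the recombination gene Xrcc3 by -0.21 ± 0.08 (adjusted p = 0.642). Without control replicate 2 these were -0.12, -0.04 and -0.21, so that Xrcc3, whose controls both read 8.18 and whose PUVA arrays ranged from 7.80 to 8.08, was the 1 of the 3 that kept its size.

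Of 9 other translesion genes 6 were below 0, where 46.6% of all genes were, and none was past an unadjusted p of 0.05. Their median was -0.076, or -0.027 without control replicate 2. The sliding clamp gene Pcna differed by -0.20 ± 0.10, Pold2, a subunit shared by polymerases delta and zeta, by -0.16 ± 0.10, and the bypass polymerase gene Polk by 0.14 ± 0.08. These were -0.06, -0.05 and 0.14 without control replicate 2. Of 19 other excision genes 14 were below 0, where 46.6% of all genes were, with a median of -0.054. At an unadjusted p under 0.05, 1 was lower, where 3.39% of all genes were. In PUVA 3D alone 14 were below 0 and 3 were lower, where 49.4% and 4.07% of all genes were. In PUVA 7D alone 16 were below 0 and 1 was lower, where 45.0% and 2.68% of all genes were. In the mean of both PUVA groups without control replicate 2, 11 of the 19 were below 0, where 49.0% of all genes were, with a median of -0.0083. The 1 gene lower in the mean of both PUVA groups was Uvssa, a factor of transcription-coupled repair. It differed by -0.22 ± 0.07 (adjusted p = 0.553), or -0.12 without control replicate 2. The TFIIH subunit gene Gtf2h5 and the XPA-binding factor gene Xab2 each differed by -0.14 ± 0.07, and without control replicate 2 by -0.16 and -0.07.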

How the data were processed

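The deposited table holds log2 values made by the authors for 41345 probe sets on 10 arrays; the log base was read from the range of the values, while the summarisation and normalization steps were not given in the sources used here. RNA was extracted with an miRNeasy kit and DNase, per the labels' protocols. Of the probe sets 23521 had 1 symbol in the platform annotation and were reduced to 22180 genes by the highest mean; 1814 with several symbols were left out. limma 3.58.1 in R 4.3.3 was fitted to all 10 arrays and 3 groups, with 7 residual and 3.51 prior degrees of freedom, and p-values were adjusted by Benjamini-Hochberg over all genes. The fit was tested on simulated data with independent noise and planted changes larger than any member showed with all 10 arrays. Recovery of differences of the size seen here was not tested. Replicates were numbered in accession order. Members and gene lists were chosen with earlier results of these data known. Values on every array are given for the members with the smallest p in each role group and for preset members that stand for a pathway step; of other lists, up to 3 genes with the smallest p. Alternatives were a filter leaving out the lowest 30% of genes, the mean of all probe sets, median centring, quantile normalization, array weights, trended robust moderation, fits of only the groups compared, and leaving out each array.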

Additional observations from a re-analysis of the deposited data

Results flagged for a closer look

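Within the groups of 4 arrays, 70 sets of values were looked at for a single array that stood far from the other 3, and 6 members had one; chance gives about 1 in 20. Fancg read 6.81 on PUVA 3D replicate 1, with the others between 7.00 and 7.03. Fancd2 read 6.04 on PUVA 7D replicate 2, with the others between 6.37 and 6.43. Rad18 read 8.03 on PUVA 3D replicate 2, with the others between 7.82 and 7.84. Mad2l2 read 7.43 on PUVA 7D replicate 4, with the others between 7.81 and 7.86. Ercc4 read 7.41 on PUVA 3D replicate 3, with the others between 7.54 and 7.56. Ercc5 read 8.80 on PUVA 7D replicate 2, with the others between 8.67 and 8.68.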

How the results depend on the processing

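No member passed an adjusted p of 0.05 in limma under any alternative run except without control replicate 1, where 4 did in PUVA 3D, 6 in PUVA 7D and 6 in the mean of both against control, beside 0.821%, 0.978% and 1.02% of all genes. Fitting only the groups compared changed 3 counts of members lower at an unadjusted p under 0.05: from 6 to 2 Fanconi and recombination genes in PUVA 3D against control, from 5 to 3 in PUVA 7D against control, and from 0 to 1 translesion gene in PUVA 7D against PUVA 3D. Leaving out 1 array at a time, the Fanconi and recombination median ran from -0.36 to -0.016 in PUVA 3D, from -0.36 to -0.016 in PUVA 7D and from -0.34 to -0.033 in their mean, all against control. Its count of lower genes ran from 0 to 9, 1 to 10 and 0 to 9 in these comparisons, and from 0 to 1 in PUVA 7D against PUVA 3D. The translesion median ran from -0.20 to 0.0018, -0.21 to -0.0034 and -0.21 to -0.0079 against control, its count from 0 to 2 in each, and from 0 to 1 between the PUVA groups. The excision median in PUVA 7D ran from -0.052 to 0.0070. The share of all genes lower was not worked out for fits of only the groups compared or without a PUVA array. The counts of lower members in those fits thus have no background. Brca1 ran from -1.18 to 0.030 in the mean of both groups. The difference of Brca2 between PUVA groups ran from -0.26 to -0.20, with an unadjusted p over 0.05 without PUVA 3D replicate 1, 2 or 4 or PUVA 7D replicate 3 or 4. The filter, centring, quantile and weight alternatives moved no list median by more than the spread between replicates. That spread includes the gap between the controls, and the filter kept 30 of the members. The probe set and moderation alternatives could not move a list median. Each measured member had 1 probe set, and moderation changes only the errors. Over all alternatives, single members' tests lost an unadjusted p under 0.05 in 65 cases and gained it in 27. Of values past that threshold 1 changed sign, that of Brca1. Values short of it changed sign more freely. Without control replicate 2 there were 7 sign changes in the mean of both PUVA groups, Brca1 included, with no share over all genes worked out. The cause of these shifts was not tested. No paired analysis was possible because the groups share no replicate numbers in the labels.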
